A study of Mus musculus with 8 samples.

Results

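Stc1, Gprc5c, Enc1, Lmo2 and Rit2 are 5 protein-coding mouse genes with no place among the classical feedback genes of the ERK kinase pathway. Each had a large increase over water in libraries given epidermal growth factor (EGF). For Rit2 this was at 18 h only, where longer culture and EGF cannot be told apart. They were chosen by their increase under EGF in the libraries described here, so their changes under EGF are given as a description, with no test. They make up 5 of 12193 gene loci with values, and all 5 were among the 10874 loci tested, those with 2 or more libraries at an FPKM of 1 or above. FPKM counts fragments relative to transcript length and library total, a level per length that can be compared between genes. No library holds an ERK inhibitor, so whether these genes respond through ERK was not tested.

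RNA was measured in AtT-20, a tumour line of mouse pituitary corticotropes, the cells that express Pomc, from which the hormone ACTH is cut. The EGFR line, AtT-20 cells given the EGF receptor, received EGF for 3 h or for 18 h, or received water, labelled 3 h. A control line, labelled Neo, received water, also labelled 3 h. All cells grew in medium with 10% fetal bovine serum, which the controls carried too. Each of the 4 groups has 2 libraries, called EGF 3 h 1 and 2, EGF 18 h 1 and 2, EGFR water 1 and 2 and Neo water 1 and 2. Whether each line is 1 clone or a pool, which species the receptor came from and what drives it are not in the labels. Nor do they state that replicates were separate cultures, so the spread behind every p-value may be technical. EGF was given to no Neo library, and every water library is labelled 3 h, so longer culture and 18 h of EGF cannot be told apart.

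Egfr, the receptor gene, had 25.9 and 27.5 FPKM in EGFR water, 28.8 and 30.6 FPKM after EGF for 3 h, 31.9 and 30.4 FPKM after EGF for 18 h, and 0.227 and 0.0664 FPKM in Neo water, as the labels have it; the value is that of the mouse locus. Of 7 corticotrope markers 5 had values in the tables used here, Pomc, Pcsk1, Tbx19, Neurod1 and Pitx1, and their summed level ran from 7443 to 9441 FPKM. Of the markers listed for other pituitary lineages, fibroblasts, endothelium and blood, 0 had values. How loci were chosen is not given, so a missing value cannot be read as no expression. Replicates correlated at r = 0.987 to 0.991 across loci. The summed FPKM was 808072 in Neo water 1 and 683834 to 732723 in the other 7 libraries.

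EGF binds its receptor at the cell surface, and the receptor's kinase then switches on RAS and the ERK kinases, PI3 kinase and STAT factors. ERK induces phosphatases and other inhibitors that damp the same pathway, and it also induces genes with unrelated work. The 5 genes act in different places of the cell. Stc1 encodes stanniocalcin 1, a secreted glycoprotein that blocks PAPP-A, a protease that cuts binding proteins of insulin-like growth factors (IGFs). Gprc5c encodes an orphan receptor of the retinoic acid-inducible group. Enc1 encodes a BTB-kelch protein that binds actin and can hand substrates to the ubiquitin ligase CUL3. Lmo2 encodes a LIM-only adapter that joins DNA-binding factors to LDB1 in the nucleus and is needed for blood formation. Rit2 encodes a RAS-like GTPase found mainly in neurons.

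Coordinates are on the mm10 assembly and 1-based. Stc1 (ENSMUSG00000014813) lies on the plus strand of chromosome 14, 69029289 to 69041401. Gprc5c (ENSMUSG00000051043) lies on the plus strand of chromosome 11, 114851152 to 114872617. Enc1 (ENSMUSG00000041773) lies on the plus strand of chromosome 13, 97241105 to 97253039. Lmo2 (ENSMUSG00000032698) lies on the plus strand of chromosome 2, 103957986 to 103981878. Rit2 (ENSMUSG00000057455) is by far the longest of the 5, on the minus strand of chromosome 18, 30973489 to 31317290. Each value covers a whole locus, so the 8 transcripts annotated for Gprc5c, the 8 for Lmo2 and the 4 for Rit2 are not separated, while Stc1 and Enc1 have 1 each. Of the 4197 exon bases of Stc1, 229 (5.46%) overlap the antisense gene Gm41192, and no source used here gives the strand used in counting, so reads from that stretch cannot be told apart. The other 4 genes share 0 exon bases with other genes. Among genes named below, Ssbp2 (22.1% of exon bases), Dusp5 (22.1%), Nefm (19.2%), Rhebl1 (18.0%) and Syt4 (14.5%) overlap exons of other genes, and Etv5 shares a similar stretch of 41.4% of its exon bases with the locus Gm4798, so their values are uncertain in source. The pseudogene Rps2-ps5 is a near copy of Rps2.

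The time course in the EGFR line asks what EGF changes early and late. Stc1, Gprc5c and Enc1 were already several-fold higher at 3 h, Lmo2 was about midway at 3 h on the log2 scale and higher again at 18 h, and Rit2 was higher at 18 h and not at 3 h. In bulk RNA, more cells making a transcript and more transcript per cell cannot be told apart.

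Stc1, the secreted protein, had 3.44 and 3.76 FPKM in EGFR water, 19.1 and 17.1 FPKM after EGF for 3 h, and 29.5 and 27.7 FPKM after EGF for 18 h. The 3 groups did not overlap, and water was lowest. The log2 fold change over water on the log2(FPKM + 1) scale was 2.05 ± 0.065 (SE) at 3 h and 2.69 ± 0.065 at 18 h, ratios of mean FPKM of 5.04 and 7.95. Stc1 ranked 5th at 3 h and 4th at 18 h by this change among 9164 protein-coding genes tested.

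Gprc5c, the orphan receptor, had 7.0 and 6.18 FPKM in EGFR water, 31.5 and 35.3 FPKM after EGF for 3 h, and 38.3 and 36.4 FPKM after EGF for 18 h. Both EGF groups lay far above water, and the 18 h libraries only just above the 3 h libraries. The log2 fold change over water was 2.18 ± 0.076 (SE) at 3 h, rank 2 of the same genes, and 2.34 ± 0.076 at 18 h, rank 7.

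Enc1, the BTB-kelch protein, had 15.2 and 14.7 FPKM in EGFR water, 57.5 and 58.4 FPKM after EGF for 3 h, and 51.4 and 52.9 FPKM after EGF for 18 h. It is the one of the 5 with its highest libraries at 3 h, and no groups overlapped. The log2 fold change over water was 1.89 ± 0.034 (SE) at 3 h, rank 6, and 1.73 ± 0.034 at 18 h, rank 14.

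Lmo2, the nuclear adapter, had 8.77 and 8.71 FPKM in EGFR water, 18.2 and 18.3 FPKM after EGF for 3 h, and 39.8 and 40.1 FPKM after EGF for 18 h. Its libraries formed 3 steps with little spread within a step. The log2 fold change over water was 0.98 ± 0.037 (SE, 95% interval 0.90 to 1.07) at 3 h, rank 40, and 2.07 ± 0.037 at 18 h, rank 9.

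Rit2, the GTPase, had 11.4 and 10.8 FPKM in EGFR water, 10.56 and 10.59 FPKM after EGF for 3 h, and 29.2 FPKM in both libraries after EGF for 18 h. Both 3 h libraries lay just below both water libraries, and both 18 h libraries lay far above. The log2 fold change over water was −0.064 ± 0.040 (SE, 95% interval −0.159 to 0.031) at 3 h, rank 5298, and 1.32 ± 0.040 at 18 h, rank 30. The 3 h value was 0.011 after rescaling to a common sum. Rit2 thus had the increase it was chosen for at 18 h only, where longer culture and 18 h of EGF cannot be told apart.

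**Figure D1:**
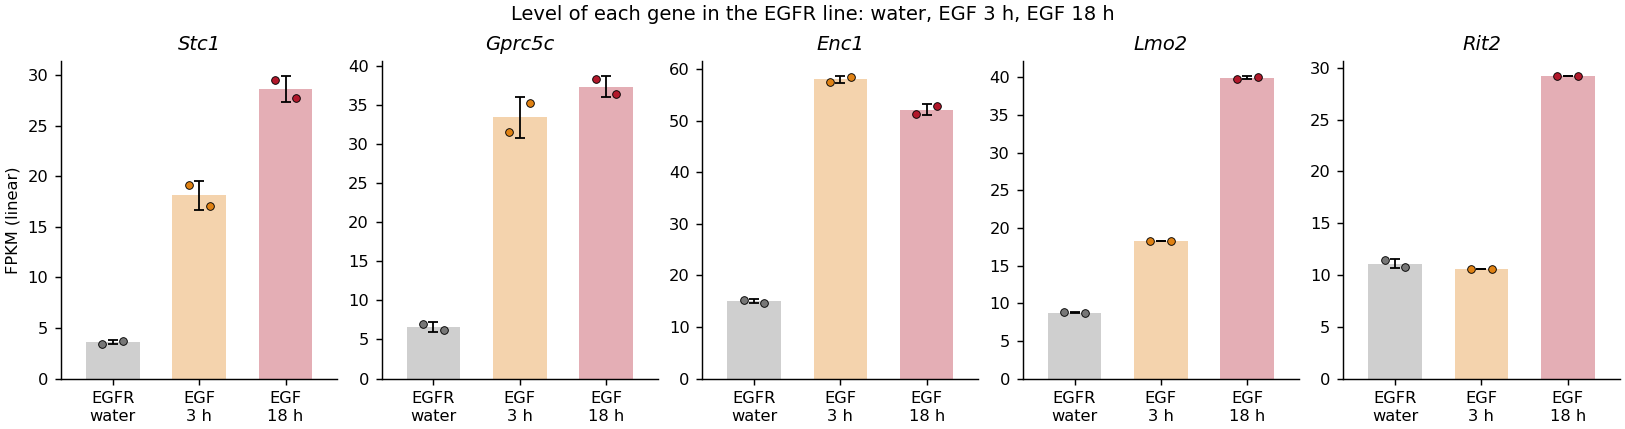
Level of each gene in FPKM on a linear axis in the EGFR line with water, EGF for 3 h and EGF for 18 h; bars are means of 2 libraries, error bars are SD and points are libraries. Stc1, Gprc5c and Enc1 are high at both EGF times, Lmo2 climbs in 2 steps (8.74, 18.2 and 39.9 FPKM on average) and Rit2 is high at 18 h only (11.1, 10.6 and 29.2 FPKM).

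At 3 h, 3 of the 5 genes (Stc1, Gprc5c and Enc1) were at least 2-fold higher than water on the log2(FPKM + 1) scale, against 0.552% of all loci tested. Lmo2 fell just short, at a ratio of mean FPKM of 2.09, and passed 2-fold after median-ratio rescaling (1.02), with a pseudocount of 0.1 (1.05) and after rescaling to a common sum (1.06). Both 3 h libraries lay above both water libraries in 4 of the 5, against 26.7% of all loci. At 18 h, 5 of 5 were at least 2-fold higher, against 0.809% of all loci, and both libraries lay above water in 5 of 5, against 28.9%. These counts follow from how the genes were chosen and nothing is read from them.

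The share of the 18 h log2 change already present at 3 h sets the 5 genes in order. It was 109% for Enc1, 93.3% for Gprc5c, 76.5% for Stc1, 47.4% for Lmo2 and −4.86% for Rit2. Between 18 h and 3 h of EGF, which use the same libraries, the log2 fold change was 1.38 ± 0.040 (SE) for Rit2, 1.09 ± 0.037 for Lmo2 and 0.63 ± 0.065 for Stc1. It was 0.16 ± 0.076 for Gprc5c, with a 95% interval of −0.020 to 0.335, and −0.15 ± 0.034 for Enc1. Rit2 ranked 6th and Lmo2 10th of the protein-coding genes by this difference, while Gprc5c ranked 1696th. The 18 h libraries lay above both 3 h libraries in 4 of the 5 genes, against 35.2% of all loci, and below them in Enc1.

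The levels of the 5 genes lay closest together at 18 h, a description only, since the genes were chosen by their EGF values. In EGFR water the highest mean, Enc1 at 14.96 FPKM, was 4.15 times the lowest, Stc1 at 3.60 FPKM. At 3 h, Enc1 at 58.0 FPKM was 5.48 times Rit2 at 10.6 FPKM. At 18 h, Enc1 at 52.1 FPKM was 1.82 times Stc1 at 28.6 FPKM. In Neo water, Enc1 at 16.26 FPKM was 2.82 times Stc1 at 5.76 FPKM. Of all 12193 loci, 18.3% had a lower mean than Stc1 in water, 56.6% at 3 h and 69.7% at 18 h. For Lmo2 these shares were 35.5%, 56.8% and 77.7%. Rit2 stood above 42.2%, 41.1% and 70.3% of loci in the same order, and Enc1 above 50.7%, 84.8% and 83.1%.

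The water libraries of the EGFR and Neo lines show how the lines differ without added EGF. This comparison did not choose the genes, but it shares the EGFR water libraries with those that did, so a low EGFR water library would raise a gene's EGF change and lower this one. Stc1 was lower in the EGFR line. The differences of the other 4 did not pass.

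Stc1 had 3.44 and 3.76 FPKM in EGFR water, against 5.62 and 5.90 FPKM in Neo water, and the groups did not overlap. Its log2 fold change was −0.56 ± 0.065 (SE, limma adjusted p = 0.00645), a ratio of means of 0.625 and the 38th lowest of the 9164 protein-coding genes. Without EGFR water 1 the change was −0.51 and did not pass (adjusted p = 0.0531), while it passed under the other 16 of 17 alternatives (lowest adjusted p = 0.00353). After EGF for 3 h and 18 h the level of Stc1 was above both water groups.

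Gprc5c averaged 6.59 ± 0.583 FPKM in EGFR water and 7.81 ± 0.540 FPKM in Neo water (SD, n = 2 each), a log2 fold change of −0.22 ± 0.076 (SE, limma adjusted p = 0.134). Enc1 averaged 14.96 ± 0.367 FPKM in EGFR water and 16.3 ± 0.227 FPKM in Neo water, a change of −0.11 ± 0.034 (adjusted p = 0.0916). Rit2 averaged 11.1 ± 0.433 FPKM in EGFR water and 12.3 ± 0.452 FPKM in Neo water, a change of −0.14 ± 0.040 (adjusted p = 0.0876). In these 3 genes both EGFR water libraries lay below both Neo libraries, though the differences did not pass.

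Lmo2 had 8.77 and 8.71 FPKM in EGFR water, against 8.67 and 9.20 FPKM in Neo water. These groups overlapped, and the change was −0.028 ± 0.037 (SE, limma adjusted p = 0.672, 95% interval −0.113 to 0.058). With Stc1, 4 of the 5 genes were lower without overlap, against 24.2% of all loci, and 1 of 5 passed the test, against 6.01%. Each of the 3 EGF-responsive genes at 3 h and Lmo2 had its 2 lowest groups in water. In the order of group means Neo stood above EGFR water for all 5. For Lmo2 the sign reversed after rescaling to a common sum (0.048). The share of all loci with this order was not counted, and choosing genes by their change over EGFR water favours it, so nothing is read from it.

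**Figure D2:**
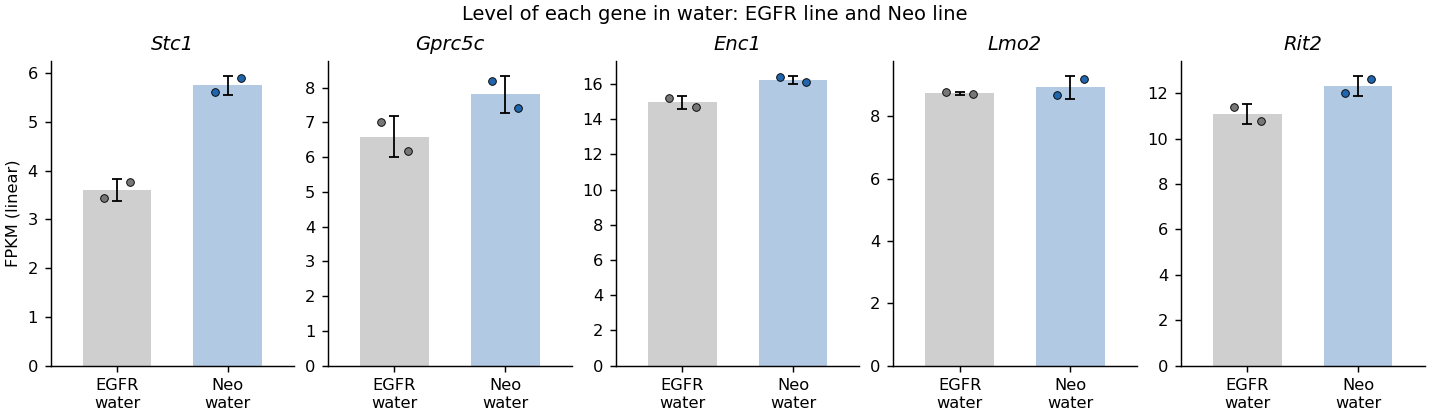
Level of each gene in FPKM on a linear axis in the EGFR line and the Neo line, both in water; bars are means of 2 libraries, error bars are SD and points are libraries. Stc1 shows the widest gap (3.60 against 5.76 FPKM) and the libraries of Lmo2 overlap.

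Each gene was set beside the family or complex in which its protein works. Across all loci tested, 31.5% passed the limma test (adjusted p below 0.05) after EGF for 3 h and 31.9% after EGF for 18 h, with medians of −0.041 and −0.031 on the log2 scale. The share of higher calls moves with scaling. At 3 h there were 1283 higher and 2142 lower loci, against 1781 and 1551 after median-ratio rescaling and 1346 and 440 after rescaling to a common sum. At 18 h there were 1437 and 2030, against 1851 and 1618, and 1189 and 705. Between the lines there were 338 higher and 315 lower in EGFR water, against 344 and 441, and 309 and 103.

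Around Stc1, the list of its paralog, PAPP-A, IGFs, their binding proteins and receptors held 13 genes, of which 4 had values. At 3 h, 3 were higher and 1 lower (median log2 fold change 0.16), and at 18 h again 3 were higher and 1 lower (median 0.30). The 3 h counts became 2 and 0 without EGFR water 2, and 3 and 0 after rescaling to a common sum. Igfbp4 and Igfbp5, both binding proteins of IGFs that PAPP-A proteases cut, moved in opposite directions. Igfbp4 had 34.6 and 36.9 FPKM in EGFR water, 43.0 and 44.1 FPKM after EGF for 3 h, and 80.3 and 82.1 FPKM after EGF for 18 h. It rose at both times, by 0.28 (adjusted p = 0.00679) and 1.16 (adjusted p = 1.13e-05), and both calls held in all 17 alternatives. Igfbp5 had 44.4 and 47.6 FPKM in EGFR water, 39.9 and 36.5 FPKM after EGF for 3 h, and 23.9 and 22.5 FPKM after EGF for 18 h. It fell by 0.96 at 18 h (adjusted p = 3.91e-05, called in all 17 alternatives) and by 0.26 at 3 h (adjusted p = 0.0131), a call lost without EGFR water 2 or after rescaling to a common sum (adjusted p up to 0.131). Igf2r, the receptor that clears IGF2, rose by 0.46 at 18 h (adjusted p = 0.000145, called in all 17). Its 3 h change of 0.14 (adjusted p = 0.0222) lost its call without EGFR water 2, without EGF 3 h 2 or with 2 groups fitted (adjusted p up to 0.139).

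Stc2, the paralog of Stc1, changed little beside Stc1. It had 28.6 and 29.2 FPKM in EGFR water, 32.4 and 33.5 FPKM after EGF for 3 h, 32.4 and 31.6 FPKM after EGF for 18 h, and 33.1 and 33.0 FPKM in Neo water. Its log2 fold changes were 0.18 at 3 h (adjusted p = 0.00675, and 0.0538 without EGFR water 1) and 0.14 at 18 h (adjusted p = 0.0149, up to 0.0997 without EGFR water 1, EGFR water 2 or EGF 18 h 1 or after rescaling to a common sum). In water, Stc2 was lower in the EGFR line by the test, as Stc1 was, at −0.19 (adjusted p = 0.0237). That call was lost in 6 of 17 alternatives, among them leaving out any 1 of the 4 water libraries (adjusted p up to 0.247). Igfbp4 was also lower there (−0.24, adjusted p = 0.0390), which held in 5 of 17 alternatives and was lost without any 1 of the 8 libraries but Neo water 2 (adjusted p up to 0.197). Of the 3 paralogs of Gprc5c listed, 0 had values in the tables used here.

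Around Enc1, the list of BTB-kelch adapters and CUL3 ligase subunits held 33 genes, of which 26 were tested. Here 4 rose and 7 fell at 3 h (median −0.029), and 2 rose and 6 fell at 18 h (median −0.034). Between the lines 0 were higher and 1 lower in the EGFR line (4 and 4 at an unadjusted p below 0.05). That 1 was lost with 2 groups fitted, without Neo water 1 or without either EGFR water library. Klhl24, an adapter of CUL3, fell by 1.20 at 3 h (adjusted p = 1.31e-05). It had 15.5 and 14.7 FPKM in EGFR water, 6.24 and 5.80 FPKM after EGF for 3 h, and 10.7 and 11.1 FPKM after EGF for 18 h, so 3 h was the lowest group where Enc1 was highest. Its decrease of 0.43 at 18 h also passed (adjusted p = 0.000611), and both calls held in all 17 alternatives. Klhl2, a kelch adapter that binds actin as Enc1 does, rose by 0.39 at 3 h and 0.31 at 18 h (adjusted p = 0.000479 and 0.000761, called in all 17). Klhl13, an adapter of CUL3 in cell division, fell by 0.46 at 18 h (adjusted p = 0.000187, called in all 17) and by 0.21 at 3 h (adjusted p = 0.00778, up to 0.157 without EGFR water 1 or after rescaling to a common sum). Klhl8 fell by 0.36 at 3 h (adjusted p = 0.00539, called in all 17) and by 0.31 at 18 h (adjusted p = 0.00784, and 0.0549 without EGFR water 1). Klhl25, the closest paralog of Enc1, changed by 0.095 and 0.072 and did not pass (adjusted p = 0.146 and 0.264). The 3 h counts became 1 higher and 2 lower without EGFR water 1, 3 and 3 without EGFR water 2, 2 and 4 without EGF 3 h 1, 5 and 4 after median-ratio rescaling, and 5 and 2 after rescaling to a common sum. The 18 h counts became 2 and 2 without EGFR water 1, 1 and 4 without EGFR water 2, 1 and 3 without EGF 18 h 1, and 2 and 3 after rescaling to a common sum.

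Around Lmo2, the list of LMO paralogs and LMO2 complex partners held 21 genes, of which 13 were tested. At 3 h 0 rose and 4 fell by limma (median −0.039; 1 rose after median-ratio, common-sum or quantile scaling, with 2 groups fitted, with the replicate block or without either EGF 18 h library), and at an unadjusted p below 0.05 1 was higher and 5 lower. At 18 h 2 rose and 4 fell (median 0.018). Between the lines 0 passed, against 0 higher and 3 lower in the EGFR line at an unadjusted p below 0.05. With the filter at 5 FPKM 1 passed as lower, and a lower call also appeared without EGF 3 h 2. Ssbp2, which stabilises LDB1 complexes, fell by 0.41 at 18 h (adjusted p = 0.000263, called in all 17 alternatives), with 20.3 and 19.8 FPKM after EGF for 18 h, against 27.8 and 26.3 FPKM in EGFR water. Tcf4, an E protein that pairs with partners of LMO2, fell by 0.36 at 3 h (adjusted p = 0.00333, called in all 17), while its 18 h change of −0.17 (adjusted p = 0.0431) held in 5 of 17 and was lost without any 1 of the EGF 18 h, EGFR water or Neo water libraries (adjusted p up to 0.229). Ssbp4 changed by 0.010 at 3 h (adjusted p = 0.939) and rose by 0.43 at 18 h (adjusted p = 0.00916, up to 0.0564 without EGFR water 2 or EGF 18 h 1).

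The paralogs of Lmo2 did not share its increase. Lmo1 had 15.7 and 17.1 FPKM in EGFR water, 13.55 and 13.52 FPKM after EGF for 3 h, and 15.1 and 14.9 FPKM after EGF for 18 h. It was lower at 3 h by 0.26 (adjusted p = 0.0191, up to 0.108 without EGFR water 2, EGF 3 h 1 or EGF 3 h 2), and its 18 h change of −0.12 did not pass (adjusted p = 0.180). Lmo4 changed by 0.015 at 3 h (adjusted p = 0.791) and fell by 0.22 at 18 h (adjusted p = 0.00563, and 0.107 after rescaling to a common sum). Lmo3 had no value in the tables used here. The list's 3 h counts became 0 higher and 2 lower without EGFR water 2, EGF 3 h 1 or EGF 3 h 2. Its 18 h counts became 1 and 3 without EGFR water 1, 1 and 2 without EGFR water 2 or with no filter on low values, 0 and 2 without EGF 18 h 1, 2 and 2 without EGF 18 h 2 or after median-ratio rescaling, and 2 and 1 after rescaling to a common sum.

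Around Rit2, the list of RAS family GTPases and their exchange factors held 34 genes, of which 20 were tested. Here 5 rose and 5 fell at 3 h (median 0.016), and 4 rose and 3 fell at 18 h (median 0.018). Between the lines 0 passed by limma, against 1 higher and 3 lower in the EGFR line at an unadjusted p below 0.05. Rit1, the paralog of Rit2, had 18.1 and 16.9 FPKM in EGFR water, 12.91 and 12.96 FPKM after EGF for 3 h, and 18.2 and 17.4 FPKM after EGF for 18 h. It fell by 0.41 at 3 h (adjusted p = 0.00275, called in all 17 alternatives), and its 18 h change of 0.022 did not pass (adjusted p = 0.792). Both paralogs had their lowest mean of the 4 groups at 3 h, but the change of Rit2 was small (−0.064 ± 0.040, SE). It was 0.011 after rescaling to a common sum, so no shared decrease is shown. At 18 h Rit2 was far above water where Rit1 overlapped it.

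Ralb, a GTPase downstream of RAS, rose by 0.49 at 3 h and 0.48 at 18 h (adjusted p = 0.000310 and 0.000176, called in all 17 alternatives). Rap2c, a RAP GTPase, rose by 0.48 at 3 h (adjusted p = 0.00435, called in all 17), and its 18 h change of 0.20 did not pass (adjusted p = 0.0775), though it did with 2 groups fitted or without either EGF 3 h library (lowest adjusted p = 0.0379). Rhebl1, a relative of the mTOR activator RHEB, fell by 0.70 at 3 h (adjusted p = 0.000191, called in all 17). Its 18 h change of −0.17 passed (adjusted p = 0.0324), and the call was lost without any 1 of the 4 EGFR water and EGF 18 h libraries (adjusted p up to 0.172). The counts of this list became 4 higher and 3 lower at 3 h without EGFR water 1, 2 and 2 without EGFR water 2, 2 and 3 without EGF 3 h 1, 4 and 2 after rescaling to a common sum, and 2 and 2 at 18 h without any 1 of the EGFR water or EGF 18 h libraries.

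For scale, a list of 30 ERK output and feedback genes had 16 tested, with 11 higher and 2 lower at 3 h (median 0.42) and 11 higher and 1 lower at 18 h (median 0.41). Between the lines, 0 were higher and 1 lower by limma, against 1 and 4 at an unadjusted p below 0.05. That 1 was lost after rescaling to a common sum, without Neo water 1 or without either EGFR water library. Etv5, an ETS factor, changed by 2.15 and 2.72, Dusp5, a nuclear ERK phosphatase, by 1.88 and 1.77, Ier3, an early response gene, by 1.41 and 1.71, and Spred1, an inhibitor of RAS signalling to ERK, by 0.997 and 0.66. The lower count became 1 at 3 h without any 1 of the EGFR water or EGF 3 h libraries or after median-ratio or common-sum rescaling, and 0 at 18 h without EGFR water 1 or EGF 18 h 2.

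**Figure D3:**
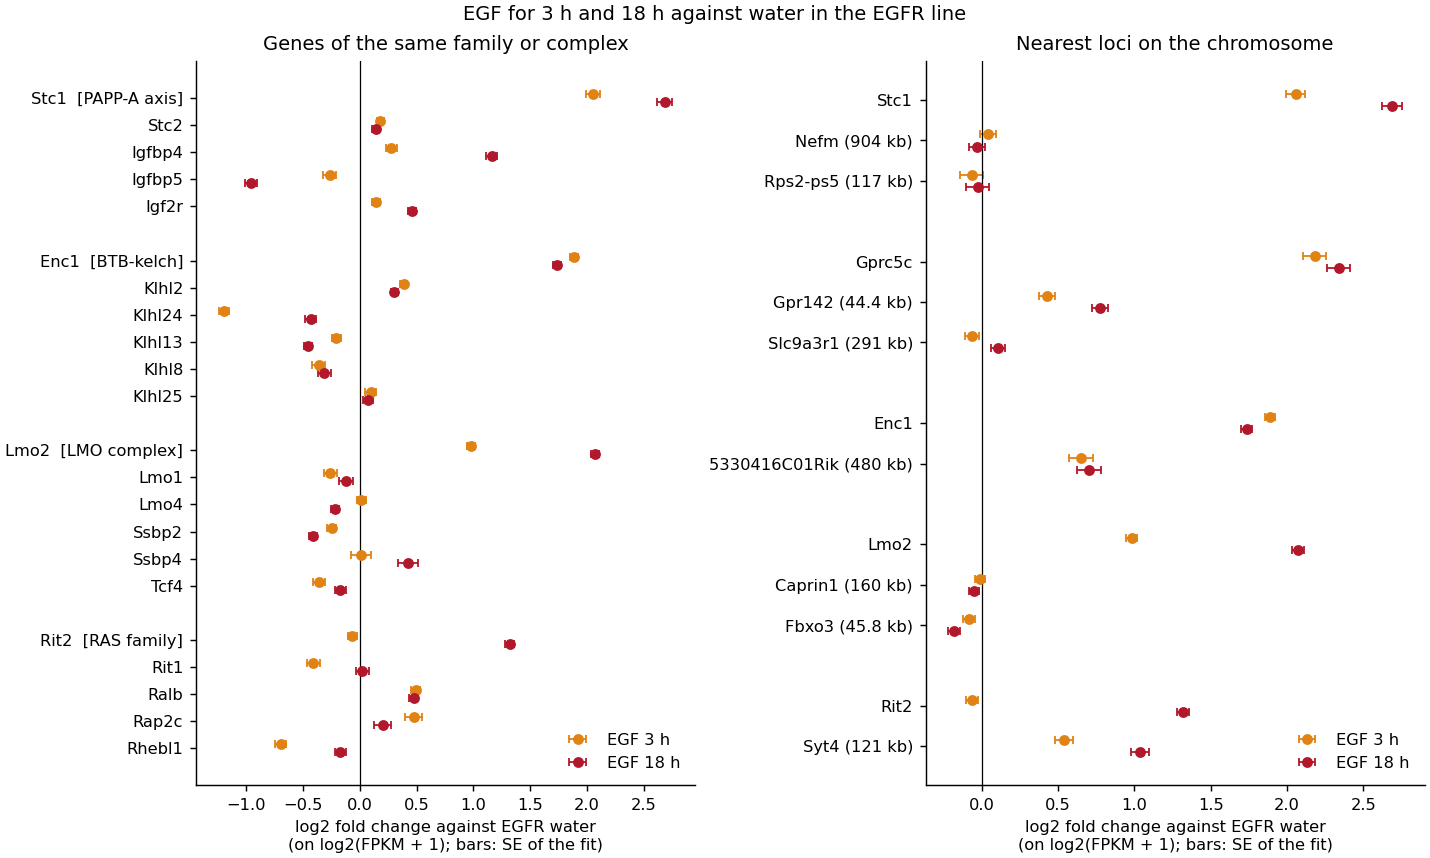
Log2 fold change against EGFR water on the log2(FPKM + 1) scale after EGF for 3 h and 18 h, with bars for the SE of the fit. The left panel sets 4 of the genes above relatives or partners, and the right panel sets all 5 above nearest loci, with the distance in kilobases; at 18 h Syt4 stands at 1.03 and Rit2 at 1.32. The 5 genes were chosen for high EGF values, so their place above the others is fixed by the choice.

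The nearest loci with values, at most 1 on a side, were set beside the 5 genes. Next to Rit2, Syt4, a synaptotagmin of secretory vesicles that lies 121 kb away, rose at both times. It had 46.7 and 46.9 FPKM in EGFR water, 72.8 and 64.4 FPKM after EGF for 3 h, and 96.6 and 97.3 FPKM after EGF for 18 h. Its changes were 0.54 at 3 h (limma adjusted p = 0.00122) and 1.03 at 18 h (adjusted p = 3.86e-05), so Syt4 was above water at 3 h where Rit2 was not. Next to Gprc5c, Gpr142, another G protein-coupled receptor gene 44.4 kb away, rose by 0.43 at 3 h (adjusted p = 0.00160) and 0.77 at 18 h (adjusted p = 6.89e-05). It had 8.88 and 8.70 FPKM in EGFR water, 12.2 and 12.1 FPKM after EGF for 3 h, and 16.0 and 15.5 FPKM after EGF for 18 h. Next to Enc1, the long noncoding RNA gene 5330416C01Rik, 480 kb away, rose by 0.65 at 3 h (adjusted p = 0.00159) and 0.70 at 18 h (adjusted p = 0.000706). The calls of these 3 neighbours held in all 17 alternatives.

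The other neighbours described moved little. Slc9a3r1, a PDZ scaffold 291 kb from Gprc5c, changed by −0.063 at 3 h and 0.10 at 18 h and did not pass (adjusted p = 0.327 and 0.130). Beside Stc1, neither the neurofilament gene Nefm, 904 kb away, nor the pseudogene Rps2-ps5, 117 kb away, passed at either time. Beside Lmo2, Caprin1, 160 kb away, did not pass at either time. Fbxo3, an F-box protein 45.8 kb from Lmo2, fell by 0.18 at 18 h (adjusted p = 0.0115), where Lmo2 was 4.57 times its water level, and lost its call without EGFR water 1, without EGF 18 h 1 or after rescaling to a common sum (adjusted p up to 0.197). Rpl29-ps5, the neighbour of Rit2 on the other side at 514 kb, was below the filter.

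The genes most like each of the 5 were sought over the 8 libraries by Pearson's r on log2(FPKM + 1), among 102 genes with group means at least 2-fold apart. These correlations are a description, since all points share the 4 groups. Stc1 was most like Kcnh1, a potassium channel (r = 0.992), Maff, a small MAF factor (r = 0.990), and Nectin1, an adhesion protein (r = 0.986). Kcnh1 had 0.456 and 0.481 FPKM in EGFR water, 4.29 and 4.21 FPKM after EGF for 3 h, and 6.58 and 6.47 FPKM after EGF for 18 h. All 3 had the higher water level in Neo that Stc1 had, which choosing by r over libraries that include Neo favours. Kcnh1 had 0.724 and 0.628 FPKM in Neo water. Maff had 4.64 and 4.36 FPKM in EGFR water, against 6.54 and 5.90 FPKM in Neo water. Nectin1 differed little, with 3.22 FPKM in both EGFR water libraries, against 3.32 and 3.38 FPKM in Neo water.

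Gprc5c was most like Plaur, the urokinase receptor (r = 0.997), Pkdcc, a secreted kinase (r = 0.994), and Synj2, a phosphoinositide phosphatase (r = 0.993). Enc1 was most like Tec, a cytoplasmic tyrosine kinase (r = 0.999), Dusp5, the ERK phosphatase (r = 0.997), and Bcl2l1, an inhibitor of apoptosis (r = 0.997). Dusp5 had 29.0 and 28.0 FPKM in EGFR water, 105.9 and 108.8 FPKM after EGF for 3 h, and 99.3 and 99.6 FPKM after EGF for 18 h. Like Enc1, all 3 were slightly lower at 18 h than at 3 h (log2 fold change −0.109 for Dusp5, −0.094 for Tec and −0.090 for Bcl2l1). Choosing genes by r over these libraries favours such a likeness. Whether Enc1 responds through ERK, as an ERK feedback gene would, was not tested.

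Lmo2 was most like Erich3 (r = 0.999), Tc2n, a protein with C2 domains (r = 0.994), and Dmkn, the secreted protein dermokine (r = 0.994), all of which climbed in steps. Erich3 had 5.59 and 6.03 FPKM in EGFR water, 10.00 and 10.5 FPKM after EGF for 3 h, and 18.95 and 19.9 FPKM after EGF for 18 h. Rit2 was most like Scg2, a secretogranin of dense core granules (r = 0.994), Aplp2, a relative of the amyloid precursor protein (r = 0.989), and Wfdc2, a secreted protease inhibitor family member (r = 0.983). Scg2 had 123 and 119 FPKM in EGFR water, 121 and 130 FPKM after EGF for 3 h, and 264.5 and 263 FPKM after EGF for 18 h. Its 3 h libraries overlapped water, where those of Rit2 lay just below water. At 18 h the libraries of both genes stood well above water. Aplp2 and Wfdc2 were slightly higher than water at 3 h, by 0.111 and 0.115. These values are given without a test, since both genes were chosen over the same libraries. Their 18 h changes were 1.13 and 1.115. Among the 5 themselves, r ran from 0.443 (Enc1 and Rit2) to 0.992 (Gprc5c and Enc1), with 0.833 for Lmo2 and Rit2.

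**Figure D4:**
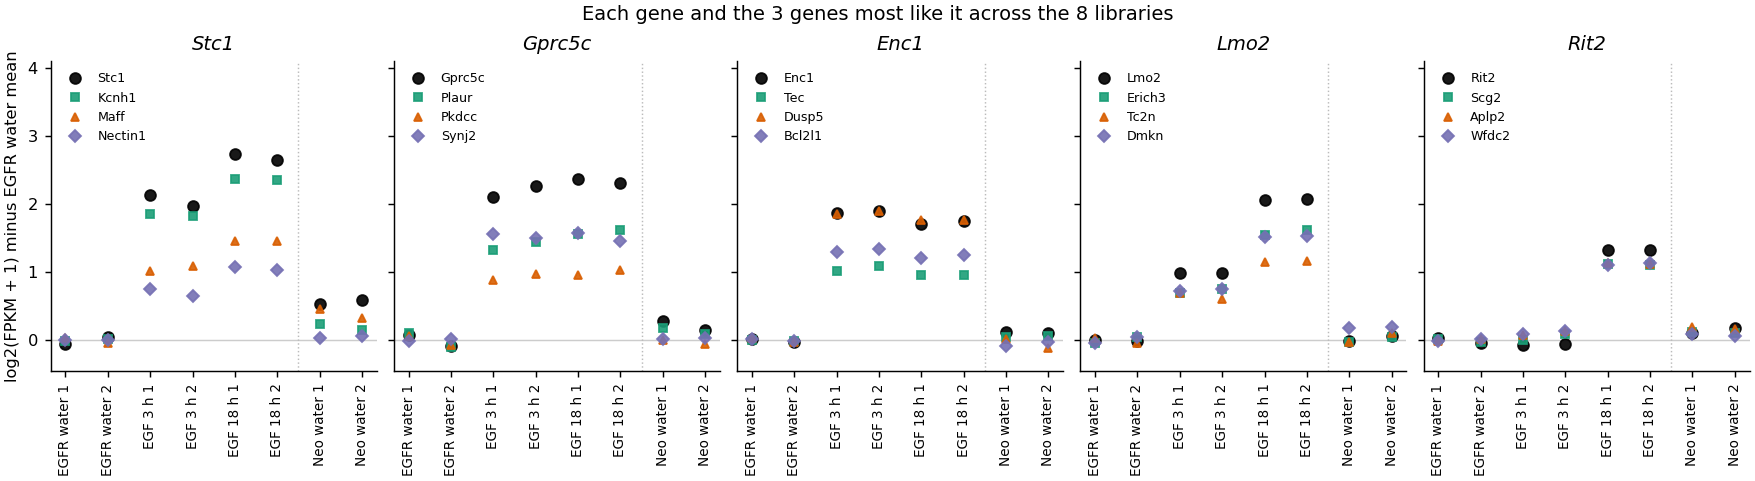
Log2(FPKM + 1) minus the mean of EGFR water for each gene and the 3 genes most like it, in each of the 8 libraries; points are single libraries, and the dotted line sets off the Neo libraries. The Stc1 panel climbs between 3 h and 18 h, the Gprc5c panel is high at both times, the Enc1 panel is slightly lower at 18 h than at 3 h, the Lmo2 panel shows 2 steps and the Rit2 panel stays near 0 at 3 h and reaches 1.32 for Rit2 at 18 h.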

How the data were processed

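The authors deposited FPKM for 12193 loci in each of 8 libraries, and these values were used as deposited. Per the labels' protocols, total RNA was column-purified, copied with Superscript III and sequenced on Illumina. The mm10 build, DESeq (no version), HTSeq 0.5.4, TopHat2 2.0.8 and Trimmomatic 0.22 are named, per the submitters' processing notes. The sources used here do not give the program that computed FPKM, the choice of loci, strandedness or depth. In each library 93 to 110 loci hold values above 0 but far below what 1 read gives, so FPKM are model estimates, and no read counts were recovered.

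The 10874 loci with 2 or more libraries at an FPKM of 1 or above were fitted with limma's trend method after log2(FPKM + 1), all 4 groups in 1 model (4 residual and 3.29 prior degrees of freedom). Tests were two-sided, with Benjamini-Hochberg adjustment over all loci of a comparison and a threshold of 0.05. Fold changes on this scale understate those of low loci. The fit was also run on simulated data, but no outcome is given here, so nothing about the p-values is read from it. The genes and lists were chosen with earlier results of these data known.

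Named from each list were paralogs with values and up to 4 called genes with the largest EGF change and a mean FPKM of at least 5 in some group, and for each of the 5 genes the nearest locus with values on each side and the 3 genes of highest r. Those 3 were sought among genes with the same mean, group means spanning at least 1 on the log2 scale and no clone, pseudogene, small RNA or ribosomal name. Not every gene picked in this way is reported here. Transcripts were compared with minimap2 2.31 and GENCODE M21, a copy being at least 95% identical over at least 200 bases.

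The 17 alternatives were each library left out (8), a filter at 5 FPKM, no filter, a pseudocount of 0.1, quantile, common-sum and median-ratio scaling, a fit of just 2 groups, the replicate number as a block, and a fit without the variance trend. Analyses used R 4.3.3, limma 3.58.1, Python 3.11.15, pandas 2.3.3, NumPy 2.4.6 and matplotlib 3.10.9.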

Additional observations from a re-analysis of the deposited data

Results flagged for a closer look

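Rit2 had libraries on opposite sides of EGFR water at the 2 EGF times. Both EGF 3 h libraries lay below both EGFR water libraries, by a log2 fold change of −0.064 that was 0.011 after rescaling to a common sum, and both EGF 18 h libraries lay above them (1.32). The 3 h value is small, and no change at 3 h is shown by it. The difference between the times was not tested, since Rit2 was chosen by these values.

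Slc9a3r1, next to Gprc5c, also had libraries on opposite sides of EGFR water, with values of −0.063 at 3 h and 0.104 at 18 h that did not pass (limma adjusted p = 0.327 and 0.130). Between 18 h and 3 h of EGF its log2 fold change was 0.167 (SE 0.047), and 0.124 to 0.197 over the 17 alternatives. Slc9a3r1 was flagged because its libraries lay on opposite sides of water. That choice favours a difference between the times, so no test of it is given.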

How the results depend on the processing

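With 2 libraries a group, counts of called loci depend on single libraries. With 1 library left out, the lone library of a group is assumed to vary like the other groups. The 3425 calls after EGF for 3 h became 1445 to 3356 with 1 library left out and 1786 after rescaling to a common sum. The 3467 calls at 18 h became 1795 to 3609 and 1894. The 653 calls between EGFR water and Neo water became 85 to 689 with 1 library left out, 237 with only 2 groups fitted, 412 after rescaling to a common sum and 382 with the replicate number as a block. Blocked counts were 3082 at 3 h and 3189 at 18 h. Deviations of same-numbered libraries correlated at −0.172 to 0.310 between groups, and no label says that a number marks a shared culture or day, so the numbers were not taken as pairing. With the Neo numbers crossed, an alternative chosen after seeing the data because EGFR water and Neo deviated oppositely, the block gave 537 calls, 271 higher and 266 lower.

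Between the lines, Stc1 ran from −0.607 to −0.506 with 1 library left out and lost its call without EGFR water 1 (adjusted p = 0.0531). Enc1 passed after median-ratio rescaling only (−0.129, adjusted p = 0.0466). Lmo2 reversed to 0.048 after rescaling to a common sum (adjusted p = 0.645) and ran from −0.066 to 0.010 with 1 library left out, where the positive value came without Neo water 2. The cause was not tested. Gprc5c and Rit2 passed in 0 of 17 alternatives. Over the same alternatives the EGF log2 changes ran from 1.98 to 2.30 at 3 h and 2.64 to 2.96 at 18 h for Stc1, 2.10 to 2.33 and 2.26 to 2.49 for Gprc5c, 1.86 to 1.97 and 1.71 to 1.79 for Enc1, 0.98 to 1.06 and 2.07 to 2.18 for Lmo2, and −0.101 to 0.011 and 1.28 to 1.39 for Rit2. Depth is unknown, so no counting interval was given.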
